A study of Homo sapiens with 11 samples.

Results

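The response of HEK293T cells to knockdown of URM1 was examined by comparing the cells transfected with siURM1 with the control cells. These comprised 5 of the 11 RNA sequencing libraries of the study, taken by their labels, with 2 libraries of siURM1 cells and 3 of control cells. HEK293T is a human embryonic kidney line that carries the SV40 large T antigen. The siURM1 cells received 60 nM of siRNA against URM1 with the reagent RNAiMAX and were collected after 48 h. The control cells are labelled as given a control siRNA and were collected after the same 48 h. The study states that a non-targeting siRNA was its negative control. One of its legends abbreviates the control libraries as HKWT, where WT can mean wild type. Whether the control cells went through transfection is therefore uncertain. In the comparison with control alone, the step itself cannot be told apart from the loss of URM1. Cells of the other knockdowns were also transfected with siRNA. The 6 remaining libraries came from cells given 50 nM of siRNA against NAE1 (siNAE1, 3 libraries) or 70 nM against UBE2M (siUBE2M, 3 libraries) for 48 h, and served to show where siURM1 cells differed from another knockdown and, in the common fit, to estimate the spread between replicates. The labels name no clone and no transgene added for the study, and they call the libraries of a group biological replicates without saying whether they came from separate cultures, so p-values measure the spread between these libraries.

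URM1 is a small protein of the ubiquitin fold with a pair of known roles. Activated by the E1-like enzyme MOCS3, it carries sulfur to the thiolase CTU1-CTU2, which thiolates the wobble uridine of the tRNAs that read the lysine codon AAA, the glutamate codon GAA and the glutamine codon CAA. It is also attached to lysines of target proteins, particularly under oxidative stress, and the study examined whether the NEDD8 enzymes NAE1 and UBE2M serve that attachment.

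Total counts ran from 15175945 to 15703118 in the control libraries and were 16321391 and 14688019 in the siURM1 libraries, and replicates varied by 7.06% (biological coefficient of variation). Levels are given as CPM, a gene's counts relative to the library size after TMM scaling. Of 13 markers of HEK293T cells, 11 reached 1 CPM, while CRABP1 and DLK1 had no counts in any of these 5 libraries. Their summed level was 847 to 924 CPM in control and 1239 to 1274 CPM in siURM1 libraries. Of the members tested, IGF2BP1 (log2 fold change 0.54), NEFM (1.19), PAX2 (0.92), VIM (0.74), KRT8 (0.57) and KRT18 (0.44, and 0.27 with an adjusted p of 0.10 without siURM1 replicate 2) were higher at an adjusted p-value under 0.05. LIN28B (-0.11), IGF2BP3 (0.10), NEFL (0.06), SALL2 (-0.07) and PEG10 (-1.34, adjusted p = 0.19) did not pass. The value of PEG10 ran from -2.21 to -0.83 when single libraries were left out. Markers of hepatocytes summed to at most 2.11 CPM, of endothelium to at most 0.316 CPM and of blood cells to at most 5.66 CPM in every library. Keratinocyte markers summed to 0.820 to 1.17 CPM in control and 1.75 to 2.36 CPM in siURM1 libraries, where SFN was higher (1.69, adjusted p = 0.0042) and KRT17 was not (-0.87, adjusted p = 0.42). The value of KRT17 ran from -2.62 to -0.04 when single libraries were left out. Of the other markers, KRT5, KRT6A and DSG3 had no counts and KRT14 and TP63 had at most 2 in a library. Fibroblast markers summed to 22.4 to 26.8 CPM in control and 28.3 to 32.3 CPM in siURM1 libraries, most of it from COL1A1, which did not differ detectably (0.10, adjusted p = 0.54), while COL3A1 (1.18), LUM (1.82) and PDGFRA (1.30), at up to 4.99, 1.44 and 1.93 CPM, were higher. These 3 calls were lost without single libraries, those of LUM (1.29) and PDGFRA (0.99) without siURM1 replicate 1, that of PDGFRA also without control replicate 1 (1.01) or siURM1 replicate 2 (1.55), and that of COL3A1 (0.96) without control replicate 2. The part of these markers in the results was not tested. In such bulk libraries, fewer cells that express a gene and less of its RNA per cell cannot be told apart.

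The targeted gene was examined first. URM1 (ENSG00000167118, GRCh38 chromosome 9, 128371319 to 128392016) had 54.4, 51.0 and 55.4 CPM in the control libraries and 15.2 and 15.5 CPM in the siURM1 libraries. Both siURM1 libraries lay below every control library, with 28.6% of the control mean left. The log2 fold change was -1.80 (standard error 0.10, adjusted p = 2.6e-15). Adjusted p-values are those of the quasi-likelihood test of edgeR after Benjamini-Hochberg correction over all tested genes. URM1 was also lower than in siNAE1 cells (log2 difference -2.08) and in siUBE2M cells (-1.64), so the loss was not shared by the other knockdowns.

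Of 18368 genes tested, 1399 (7.62%) were differentially expressed genes (DEGs), with a log2 fold change of at least 1 in either direction at an adjusted p-value under 0.05. Of these, 530 genes (2.89% of those tested) were higher and 869 (4.73%) were lower in siURM1 cells. Without the threshold on size, 3819 genes (20.8%) were higher and 3822 (20.8%) were lower, in nearly equal number. Most DEGs were genes of low level. Among the 2492 genes with a mean above 1 and up to 3 CPM, 279 were called lower and 126 higher, whereas among the 2249 genes above 100 CPM 19 were lower and 25 higher. In 29.8% of the tested genes both siURM1 libraries lay above every control library, and in 31.0% below every one, which is the background for each such statement made here.

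**Figure D1:**
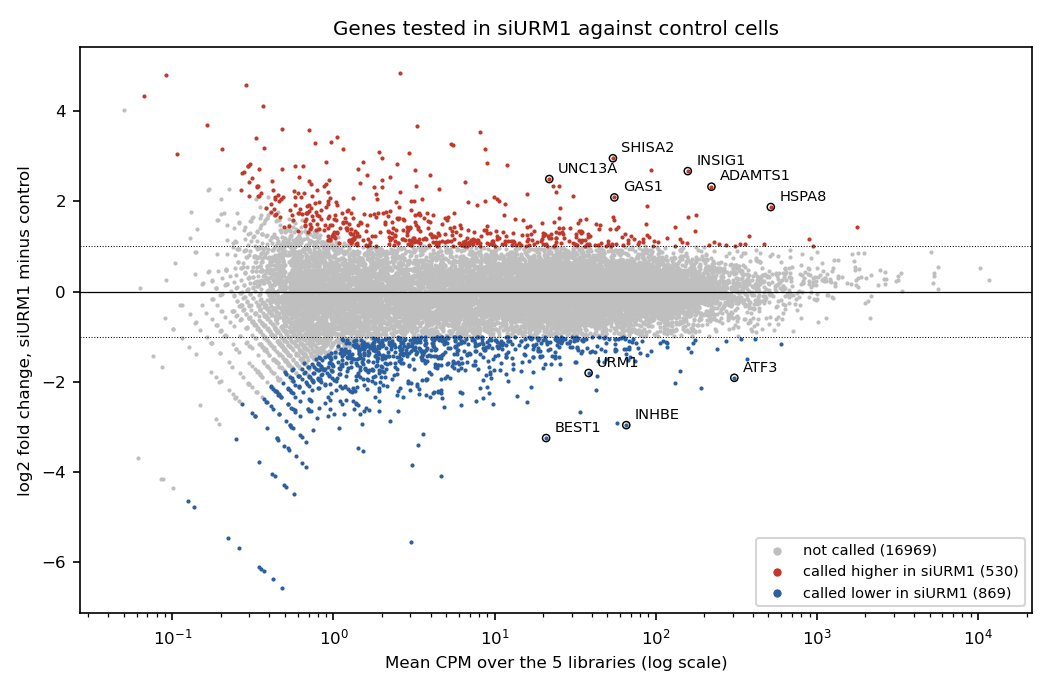
Each point is 1 of the 18368 tested genes, with its mean over the 5 libraries in CPM on a log axis and its log2 fold change (siURM1 minus control) on the vertical axis. Red points are the 530 DEGs that were higher, blue points the 869 that were lower, dotted lines mark log2 fold changes of 1 and -1, and circles mark named genes. The lower DEGs lie mostly at the left, at low levels.

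A mean of 10 CPM or more was reached by 360 DEGs, of which 162 were higher and 198 lower. The largest decreases included several genes of metabolism and signalling. BEST1, which encodes a calcium-activated chloride channel, had 36.3, 30.4 and 30.7 CPM in control and 3.31 and 3.53 CPM in siURM1 libraries, leaving 10.5% (log2 fold change -3.25, standard error 0.17, adjusted p = 2.9e-16). INHBE, the subunit of the secreted factor activin E, had 101, 104 and 96.9 CPM in control and 13.1 and 12.7 CPM in siURM1 libraries, leaving 12.8%. In both genes each group was tight and the groups were far apart. The 12 lowest also included AKNA, a centrosome protein (-2.90), RAPGEF3, a Rap exchange factor driven by cyclic AMP (-2.68), FUT1, a fucosyltransferase (-2.46), CFAP70, a protein of cilia (-2.31), TRIB3, a pseudokinase (-2.14), SSPOP, listed as SSPO in the files (-2.12), CTH, the last enzyme of cysteine synthesis (-2.02), SH2D3C, an adaptor (-1.98), and SLC7A3, a carrier of cationic amino acids (-1.94). Their adjusted p-values ranged up to 1.5e-11, the value of SH2D3C.

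Among the largest increases, SHISA2 (ENSG00000180730, GRCh38 chromosome 13, 26044597 to 26051031), which holds Frizzled and FGF receptors back in the endoplasmic reticulum (ER), had 13.1, 15.6 and 15.3 CPM in control and 109 and 118 CPM in siURM1 libraries, a 7.74-fold higher mean (log2 fold change 2.95, standard error 0.11, adjusted p = 2.1e-20). NANOS1, an RNA-binding repressor of translation, had 2.96, 4.43 and 3.09 CPM in control and 27.4 and 21.5 CPM in siURM1 libraries. INSIG1 (ENSG00000186480, GRCh38 chromosome 7, 155297776 to 155310235), the ER anchor that keeps the sterol sensor SCAP inactive, had 48.4, 53.3 and 49.2 CPM in control and 326 and 313 CPM in siURM1 libraries, a log2 fold change of 2.67 with the smallest adjusted p-value of all DEGs (4.6e-24). All 3 genes were high in both siURM1 libraries and low in every control library. The highest also included the chaperone HSPA1B (2.68), UNC13A, a priming factor of synaptic vesicles (2.49), the AP-1 subunit JUNB (2.34), the orphan receptor GPR50 (2.33), the secreted metalloprotease ADAMTS1 (2.32), the membrane-bound metalloprotease MMP15 (2.20), the Wnt receptor FZD8 (2.12) and GAS1, a co-receptor for Hedgehog ligands (2.09). Among the DEGs above 100 CPM, the 6 with the smallest p-values were INSIG1, ADAMTS1, HSPA8 (1.87), ATF3 (-1.91), TRIB3 and CTH. ACTG1, which encodes cytoplasmic actin, had 1065, 1090 and 1039 CPM in control and 2833 and 2876 CPM in siURM1 libraries, a log2 fold change of 1.42. It lay outside the rule by which genes were chosen and was named after its values were seen.

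**Figure D2:**
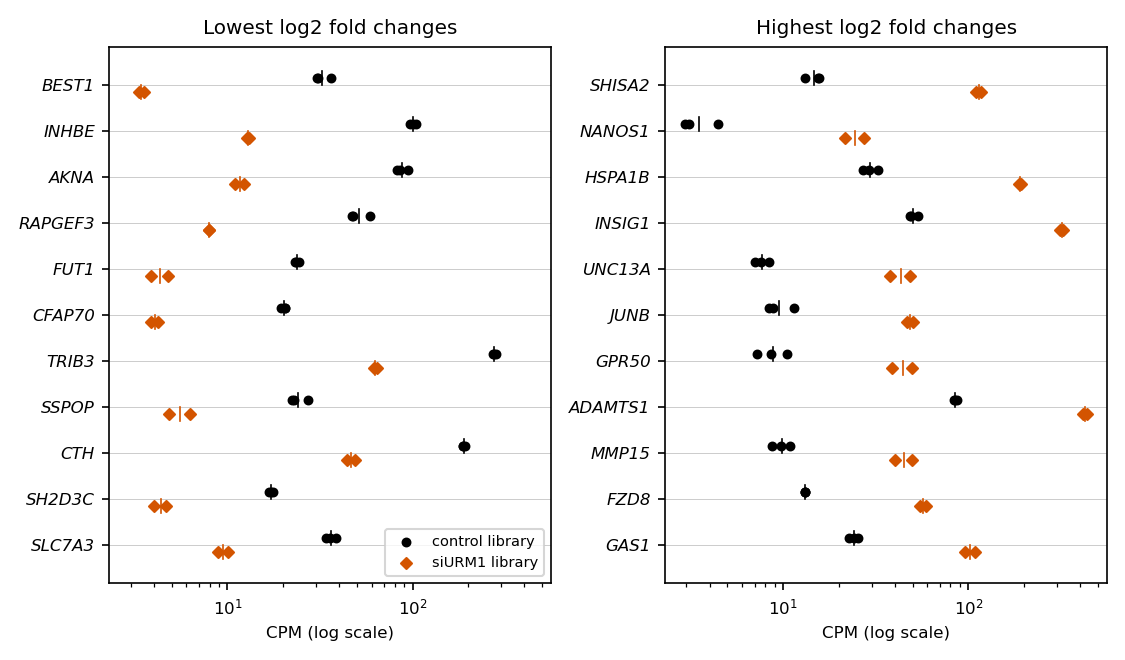
The CPM of each library, on a log axis, for 11 of the DEGs with the lowest (left) and 11 of those with the highest log2 fold change (right), all with a mean of at least 10 CPM. Black circles are the 3 control libraries, orange diamonds the 2 siURM1 libraries, and short vertical lines the group means. In each of these genes the groups do not overlap, which follows largely from their choice by the size of the change.

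Many of these genes had levels in siNAE1 and siUBE2M cells that also differed from the control, so siURM1 cells were tested directly against each of the other knockdowns. Against siNAE1 cells, 627 genes (3.41%) were higher and 614 (3.34%) lower in siURM1 cells. Against siUBE2M cells, 359 genes (1.95%) were higher and 634 (3.45%) lower. INHBE did not differ detectably between siURM1 and siNAE1 cells (log2 difference 0.15, adjusted p = 0.36) or between siURM1 and siUBE2M cells (0.12, adjusted p = 0.50), and ACTG1 did not either (0.02 and -0.04). ADAMTS1 was 1.91 higher than in siUBE2M cells, whereas its difference from siNAE1 cells was 0.13 (adjusted p = 0.12).

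With a mean of at least 10 CPM over all 11 libraries, 12 genes were higher and 21 were lower in siURM1 cells than in control, siNAE1 and siUBE2M cells alike, each at the DEG threshold. These were few of the 18368 genes tested. How many of those reached that mean was not counted, so no share is given. SHISA2 was the first of the higher genes, with 14.3, 14.7 and 13.2 CPM in siNAE1 and 8.17, 11.0 and 8.36 CPM in siUBE2M libraries against 109 and 118 CPM in siURM1 libraries. GAS1 had 24.2, 22.6 and 25.4 CPM in control, 24.1, 28.4 and 22.9 CPM in siNAE1, 23.3, 24.2 and 21.7 CPM in siUBE2M, and 109 and 95.8 CPM in siURM1 libraries. FZD8 had 13.2, 13.1 and 13.1 CPM in control and 59.4 and 54.9 CPM in siURM1 libraries, and was higher than in siNAE1 cells by 1.76 and than in siUBE2M cells by 2.19. These 3 genes act at the cell surface or in the supply of receptors to it, in Wnt, FGF and Hedgehog signalling. UNC13A rose from 8.33, 7.63 and 7.00 CPM in control to 48.6 and 37.6 CPM in siURM1 libraries and had at most 9.97 CPM in the libraries of the other knockdowns. PCDH10, a cell adhesion protein of the protocadherin family, rose from 40.3, 40.4 and 45.4 CPM to 170 and 143 CPM. The other higher genes included CPLX1, FBXL16, IGFBP5, SCAMP5, CNTFR and MMP15, of which CPLX1 and SCAMP5, like UNC13A, encode proteins of vesicle release. Apart from MMP15, the choice of these names was made with their values known.

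Among the 21 lower genes, DOK3, an adaptor of immune receptors, ranked before URM1 itself, with 13.2, 12.3 and 10.4 CPM in control and 2.75 and 3.39 CPM in siURM1 libraries, and it was 2.72 lower than in siNAE1 and 2.38 lower than in siUBE2M cells. AIDA, which binds the Wnt pathway scaffold axin, had 29.1, 31.2 and 35.2 CPM in control and 11.2 and 11.8 CPM in siURM1 libraries. PRRG4, a membrane protein with a Gla domain, had 12.7, 14.5 and 14.7 CPM in control and 4.06 and 6.58 CPM in siURM1 libraries. In these genes every library of the control and of both other knockdowns lay above the siURM1 libraries. That follows largely from the rule that chose them, so it is not separate evidence. The others included the ER stress sensor ATF6 (-1.52 against control), the splicing factor SLU7 (-1.30), the Mediator subunit MED19 (-1.18) and the copper chaperone COX17 (-1.09), the last 3 of them named with their values known.

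The partners of URM1 were examined next. Of 22 genes of URM1 activation, tRNA thiolation and the Elongator complex, all tested, URM1 was the single DEG, and DESeq2 called the same number in each direction. MOCS3, which activates URM1, had 20.8, 20.1 and 19.2 CPM in control and 22.2 and 21.5 CPM in siURM1 libraries (log2 fold change 0.13, adjusted p = 0.40). CTU1, a subunit of the thiolase, was lower by less than the threshold (-0.44, adjusted p = 0.0025). ALKBH8, which completes other modifications of the same wobble uridines, had 41.9, 44.3 and 43.7 CPM in control and 22.5 and 23.0 CPM in siURM1 libraries, a log2 fold change of -0.93. Its cofactor TRMT112 (0.67) and the Elongator partner KTI12 (0.75) were higher. Among 52 other tRNA-modifying enzymes, 21 were lower and 7 higher at an adjusted p-value under 0.05 of any size, with 1 DEG, the guanosine methyltransferase TRMT10A (-1.02), whose value was -0.99 without control replicate 3 and -0.92 without siURM1 replicate 1.

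Of 18 genes of the NEDD8 cascade and of the deubiquitinases named by the study, none was a DEG, nor was any by DESeq2, and 6 higher and 7 lower had an unadjusted p-value under 0.05 by edgeR. NAE1 (0.38) and the modifier NEDD8 (0.32) were slightly higher, while UBE2M (-0.37) and the NEDD8 protease SENP8 (-0.67) were lower, each with an adjusted p-value under 0.05. The value of NEDD8 was 0.15 (adjusted p = 0.37) without siURM1 replicate 2 and 0.48 without siURM1 replicate 1. For comparison, UBE2M was 3.61 higher than in siUBE2M cells and NAE1 was 1.74 higher than in siNAE1 cells.

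A total of 38 gene lists were described, with 1555 tested genes, of which 88 were DEGs higher and 52 lower in siURM1 cells. The median log2 fold change of all tested genes was -0.02, and 2.89% and 4.73% of all tested genes were called higher and lower. These shares are the background for each list, but they are not matched for level. Of the 2492 genes above 1 and up to 3 CPM, 126 were called higher and 279 lower. Of the 2249 genes above 100 CPM, 25 were higher and 19 lower. Lists of low-level genes, such as ion channels, can therefore exceed this background by level alone. Whether any list exceeded genes of its own level was not tested.

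Targets of ATF4, the transcription factor that drives amino acid supply in the integrated stress response, were mostly lower. Of 45 tested, 14 were DEGs lower and none was higher by edgeR or DESeq2, with 3 higher at an unadjusted p-value under 0.05, and the median log2 fold change was -0.65. The study had reported lower ATF3, a member of this list, in these cells, but described no ATF4 targets as a group. The list was also chosen with earlier results of these data known. The count is therefore not independent evidence of this direction. ATF4 itself had 848, 894 and 813 CPM in control and 926 and 974 CPM in siURM1 libraries (0.16, adjusted p = 0.051). By role, 6 of 14 regulators, 4 of 9 amino acid transporters, 3 of 7 secreted factors and 1 of 15 enzymes of amino acid synthesis were DEGs. The enzyme was CTH, with 193, 188 and 187 CPM in control and 44.2 and 49.0 CPM in siURM1 libraries, while ASNS, asparagine synthetase, fell by 0.46, PSPH, which makes serine, fell by 0.93 and PHGDH, at the head of serine synthesis, fell by 0.17 on the log2 scale. Among the regulators, ATF3 had 440, 440 and 424 CPM in control and 114 and 118 CPM in siURM1 libraries, and CEBPB fell by 1.45. FGF21, a stress hormone, had 5.07, 5.96 and 4.73 CPM in control and 0.499 and 0.485 CPM in siURM1 libraries. The regulator CHAC1, which degrades glutathione, fell by 1.26 and was 1.54 higher than in siNAE1 cells. The transporters SLC7A1 (-0.93) and SLC1A4 (-0.98) lost their calls without siURM1 replicate 2, and SLC7A1 (-0.98) also without control replicate 3. The median difference of the 45 genes was 0.44 from siNAE1 and -0.07 from siUBE2M cells.

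The composite site of ATF4 and C/EBP proteins was searched as TGATGNAA on both strands in RefSeq promoters (GRCh38.p14, from 250 bases before to 50 bases after the start). Promoters of 10 of the 14 DEGs could be matched, and 4 of them held it, as did 8 of the 35 matched among all tested targets and 3.67% of the 27305 promoters searched. The match in SLC7A1, a carrier of cationic amino acids, lay after the start and is not shown. The surroundings of the other 3 are given 5′ to 3′ on the strand of the gene, with the match in capitals, for ATF3 (chr1:212565186-212565253, plus strand), CHAC1 (chr15:40953232-40953299, plus strand) and FGF21 (chr19:48755440-48755507, plus strand).
ATF3: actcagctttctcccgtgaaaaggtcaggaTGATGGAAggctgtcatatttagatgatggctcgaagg
CHAC1: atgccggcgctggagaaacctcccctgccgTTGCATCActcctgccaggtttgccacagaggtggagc
FGF21: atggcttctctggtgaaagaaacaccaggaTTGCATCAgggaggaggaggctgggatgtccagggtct
In CHAC1 and FGF21 the site reads in the opposite orientation to that in ATF3. A match describes these letters and is no evidence of binding.

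The aminoacyl-tRNA synthetases, which charge tRNAs, moved in the same direction by less. Of 23 tested genes, 16 were lower and 3 higher at an adjusted p-value under 0.05, against 20.8% of all genes in each direction, and the median was -0.40. The single DEG was AIMP2, a scaffold of the synthetase complex, with 74.0, 72.3 and 73.4 CPM in control and 31.7 and 26.8 CPM in siURM1 libraries. HARS1, the histidine enzyme, was higher (0.78). In the unfolded protein response of the ER, 2 of 39 tested genes were DEGs, both of them lower transcription factors. That share is close to the 4.73% of all tested genes called lower, so the count does not set the list apart. ATF6 had 89.2, 88.2 and 94.2 CPM in control and 32.6 and 30.4 CPM in siURM1 libraries, and was also lower than in siNAE1 (-1.09) and siUBE2M cells (-1.29). XBP1 had 485, 498 and 508 CPM in control and 172 and 178 CPM in siURM1 libraries, and its differences from the other knockdowns were small (-0.09 and -0.25). The ER chaperone HSPA5 fell by 0.35, and the 19 chaperones and folding enzymes had a median of 0.01.

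Many chaperones of the heat shock response were higher, with the largest changes in members of the HSP70 family. Of 43 tested genes, 5 were DEGs higher and 1 lower, with a median log2 fold change of 0.30. At an adjusted p-value under 0.05, 28 were higher and 5 lower. The higher ones included 8 of 10 chaperonins, none of which was lower, and 6 of 9 members of the HSP40 family, of which 2 were lower. HSPA8, the constitutive HSP70, had 233, 257 and 261 CPM in control and 915 and 919 CPM in siURM1 libraries (log2 fold change 1.87). HSPA1B had 32.5, 27.1 and 28.9 CPM in control and 192 and 187 CPM in siURM1 libraries, and HSPA1A had 1.75, 1.48 and 0.505 CPM in control and 13.7 and 10.0 CPM in siURM1 libraries. HSPA1A and HSPA1B are near-identical copies, and how reads were divided between them is uncertain. The other higher DEGs were HSPA2 (2.00) and the mitochondrial co-chaperonin HSPE1 (1.14). The lower one, HSPA1L (-1.72, adjusted p = 0.047), rested on at most 1.60 CPM and lost its call without any of several libraries, for example without siURM1 replicate 2 (-0.79). HSPH1 (0.77), DNAJB1 (0.71) and the chaperonin subunit CCT8 (0.79) were higher below the threshold, while HSP90AA1 had 685, 698 and 733 CPM in control and 678 and 659 CPM in siURM1 libraries. Against siNAE1 cells HSPA8 was lower by 0.67 and HSP90AA1 by 1.44.

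Heat shock elements were searched as GAANNTTC and TTCNNGAA, which can overlap, on both strands of the same promoters. All 6 DEGs of the list were matched and 4 held at least one, as did 11 of the 39 matched among all tested genes. Of all promoters, 6.87% held the first and 7.84% the second. The stretches around the matches are shown for the higher DEGs that held one, HSPA1A (chr6:31815407-31815474, plus strand), HSPA1B (chr6:31827603-31827670, plus strand) and HSPA8 (chr11:123062149-123062386, minus strand), with matches in capitals.
HSPA1A: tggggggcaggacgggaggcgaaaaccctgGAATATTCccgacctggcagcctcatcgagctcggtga
HSPA1B: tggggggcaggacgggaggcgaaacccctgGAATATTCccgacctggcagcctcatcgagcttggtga
HSPA8: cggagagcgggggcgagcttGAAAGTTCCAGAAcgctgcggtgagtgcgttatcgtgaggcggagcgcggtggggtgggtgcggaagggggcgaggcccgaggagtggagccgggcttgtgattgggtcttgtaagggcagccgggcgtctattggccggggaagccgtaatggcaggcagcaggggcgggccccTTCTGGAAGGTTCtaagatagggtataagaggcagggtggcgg
The element of HSPA1A is also that of HSPA1L, which starts nearby on the other strand and whose level was not higher. HSPA8 has a pair of overlapping matches at either end of the stretch.

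Genes of peroxide defence rose in part. Of 42 tested NRF2 targets and antioxidant genes, 4 were DEGs higher and 1 lower, with a median of 0.18. PRDX1, a peroxiredoxin that reduces hydrogen peroxide, had 92.1, 99.7 and 91.9 CPM in control and 285 and 324 CPM in siURM1 libraries (1.69). HMOX1, which degrades haem and releases iron, had 11.8, 13.9 and 11.6 CPM in control and 44.1 and 45.6 CPM in siURM1 libraries (1.85) and was 1.37 higher than in siUBE2M cells. The cystine carrier SLC7A11, a target of ATF4 as well as of NRF2, had 182, 184 and 221 CPM in control and 59.8 and 55.3 CPM in siURM1 libraries. GLRX, which reduces glutathione adducts, was at the threshold (1.03, and 0.91 without control replicate 3 or 1.00 without siURM1 replicate 1, when it lost its call). In the list of 11 iron genes, 4 were DEGs and all 4 were higher, 2 of which, HMOX1 and FTL, also stand in the list before. FTL, the ferritin light chain, had 233, 247 and 220 CPM in control and 428 and 533 CPM in siURM1 libraries, and its log2 fold change of 1.04 was 0.88 without siURM1 replicate 2. TFRC, the transferrin receptor, rose by 1.16 and STEAP3, an iron reductase, by 1.22. Of 5 metallothionein-list genes, MT2A (1.94) and MT1X (2.32), which bind zinc and copper, were higher.

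In the pentose phosphate pathway, which regenerates NADPH, 13 of 24 tested genes were higher and 3 lower at an adjusted p-value under 0.05, with a median of 0.38. PGD, one of its enzymes that make NADPH, was higher by 0.55, and of the non-oxidative enzymes TKT was higher by 0.35 and TALDO1 by 0.36. PRPS2, which draws on the pathway to make PRPP, was higher by 0.80. Its 3 DEGs were ALDOC (higher), IDNK and RBKS (lower), all below 10 CPM, and ALDOC fell short of the threshold without control replicate 1 (0.97), control replicate 3 (0.95) or siURM1 replicate 2 (0.97).

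Most genes of sterol synthesis were higher. Of 39 genes of sterol and fatty acid synthesis tested, 9 were DEGs higher and none was lower by edgeR or DESeq2, although 5 were lower at an unadjusted p-value under 0.05, and the median was 0.50. Of 20 enzymes of sterol synthesis, 17 were higher and 2 lower at an adjusted p-value under 0.05, and of 8 of fatty acid synthesis 4 were higher and 1 lower, with a median of 0.21. SQLE (1.08), MSMO1 (1.20) and FDFT1 (1.06, and 0.99 without siURM1 replicate 2) passed the threshold, while CYP51A1 had 0.98 and DHCR7 0.90. SCD, which desaturates fatty acids, had 579, 591 and 634 CPM in control and 1375 and 1315 CPM in siURM1 libraries (1.16). Synthesis enzymes and the feedback inhibitor INSIG1 thus rose together, and INSIG1 was also higher than in siNAE1 (0.35) and siUBE2M cells (1.63). The 20 sterol enzymes did not share the excess over siNAE1 cells, with 3 higher and 8 lower at an adjusted p-value under 0.05. Against siUBE2M cells 5 were higher and 1 lower.

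Of 39 genes of glycolysis and hypoxia, 24 were higher and 5 lower at an adjusted p-value under 0.05, with a median of 0.45 and 3 DEGs, all higher. SLC2A3, a neuronal-type glucose carrier, had 10.3, 11.0 and 12.7 CPM in control and 31.8 and 33.0 CPM in siURM1 libraries, whereas SLC2A1, the widespread glucose carrier, fell by 0.66. PGK1 (0.86) and PFKP (0.88) were higher below the threshold, and NDRG1, a hypoxia-induced gene, rose by 1.49 but stood 1.29 lower than in siNAE1 cells. Of 20 lysosomal genes, 12 were higher and 1 lower at an adjusted p-value under 0.05. CTSA, which protects lysosomal glycosidases, had 29.8, 30.9 and 26.5 CPM in control and 88.1 and 95.6 CPM in siURM1 libraries, and NEU1, the sialidase it binds, had 30.9, 29.2 and 31.4 CPM in control and 90.1 and 92.3 CPM in siURM1 libraries. NEU1 was also higher than in siNAE1 (1.03) and siUBE2M cells (0.91). GLA, a galactosidase, was near the threshold (1.02, and 0.98 without control replicate 1 or 0.96 without siURM1 replicate 2), and LAMP1 (0.98), CTSB (0.90) and CTSL (0.92) lay just under it. Of the 19 autophagy genes none was a DEG, and 5 were higher and 3 lower at an adjusted p-value under 0.05.

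Immediate early genes, which answer growth factor and stress signals within minutes, held many DEGs. Of 28 tested, 13 were higher and none lower by edgeR (12 and 0 by DESeq2, and 3 lower at an unadjusted p-value under 0.05), with a median of 0.79. FOS had 5.49, 4.67 and 3.47 CPM in control and 18.3 and 19.5 CPM in siURM1 libraries. JUNB had 8.76, 11.4 and 8.33 CPM in control and 50.0 and 46.4 CPM in siURM1 libraries, and EGR1 had 20.1, 20.5 and 15.8 CPM in control and 55.0 and 53.1 CPM in siURM1 libraries. All 3 were higher than in siUBE2M cells, by 1.69, 1.75 and 1.68, and JUNB was also 0.76 higher than in siNAE1 cells. Of 8 feedback inhibitors of ERK signalling, 5 were DEGs, among them the phosphatase DUSP5 (2.09) and SPRY2 (1.14). SPRY2 was higher than in siNAE1 cells by 0.80 and than in siUBE2M cells by 0.78. Some of the 13 calls rested on single libraries. The number called was 9 without control replicate 3, 10 without control replicate 2 and 9 without siURM1 replicate 2. Without control replicate 3, FOSL1 (0.92), EGR3 (0.96), NR4A2 (0.95) and DUSP6 (1.40, adjusted p = 0.056) lost their calls, and without control replicate 2, DUSP4 (0.97), EGR3 (1.24, adjusted p = 0.10) and DUSP6 (1.38, adjusted p = 0.061) did. Without siURM1 replicate 2, NR4A2 (0.92), DUSP4 (0.99), EGR3 (1.42) and DUSP6 (1.30) were not called, and without siURM1 replicate 1, FOSL1 (0.95) and EGR3 (1.27) were not. EGR3 also missed the threshold without any one siNAE1 library, at adjusted p-values of 0.054 to 0.058. JUN (-0.61) and JUND (-0.73) moved the other way, with 671, 643 and 637 CPM of JUN in control and 444 and 408 CPM in siURM1 libraries.

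The site of serum response factor, the CArG box, was searched by its consensus on both strands. It was found in 1 of the 7 matched promoters of these DEGs, that of EGR1, and in none of the others among the 20 matched of all tested genes, against 1.29% of all promoters. The stretch of EGR1 (chr5:138465344-138465435, plus strand) holds 2 boxes, in capitals.
EGR1: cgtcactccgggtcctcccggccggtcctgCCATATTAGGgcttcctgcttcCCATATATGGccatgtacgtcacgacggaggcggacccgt

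Among 41 genes of TGF-beta and BMP signalling, 7 were DEGs higher and 2 lower. The lower ones were the activin subunits INHBE and INHBA (-1.59). Among the targets, ID3, an inhibitor of differentiation factors, had 17.6, 15.7 and 14.3 CPM in control and 37.3 and 34.6 CPM in siURM1 libraries, and ID1 rose by 1.73. BMP4, GDF11, SMAD6, NOG and CCN2 had log2 fold changes of 1.02 to 1.15 and each lost its call when 1 library was left out, BMP4 (0.80) and GDF11 (0.97) without siURM1 replicate 2, SMAD6 (0.98) without control replicate 2, NOG (0.93) without control replicate 1 and CCN2 (1.00, adjusted p = 0.073) without siURM1 replicate 1. The BMP signal transducer SMAD1 was lower (-0.83). In Wnt and Hedgehog signalling, 5 of 44 tested genes were DEGs higher and 2 lower. Besides FZD8 and SHISA2, the Wnt receptors FZD4 and FZD7 rose. FZD4 had 13.5, 15.6 and 12.8 CPM in control and 29.9 and 35.7 CPM in siURM1 libraries, and was higher than in siNAE1 cells by 0.67 and than in siUBE2M cells by 0.81. FZD7 had 19.1, 16.1 and 18.1 CPM in control and 42.2 and 38.3 CPM in siURM1 libraries and was higher by 0.58 and 0.55. FZD5 (0.82) and FZD1 (0.87) were higher below the threshold, so 12 of 25 ligands and receptors were higher and 2 lower at an adjusted p-value under 0.05. The Wnt antagonist DKK1 (1.41) and, on the lower side, SFRP1 (-1.26) rested on at most 3.22 CPM and lost their calls without single libraries, DKK1 without siURM1 replicate 1 (1.14) and SFRP1 without control replicate 3 (-0.88). HHIP, which sequesters Hedgehog ligands, had 17.9, 17.2 and 18.3 CPM in control and 6.24 and 5.47 CPM in siURM1 libraries, and was lower than in siNAE1 cells by 1.26 and than in siUBE2M cells by 0.67. The Hedgehog co-receptor GAS1 was thus higher and the Hedgehog antagonist HHIP lower than in all 3 other groups.

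Ion channel genes moved in both directions. Of 113 tested, 13 were higher and 13 lower, which is 26 DEGs. The purinergic channel P2RX1 had 4.53, 5.23 and 4.86 CPM in control and 0.250 and 0.416 CPM in siURM1 libraries, and the sodium channel SCN4A had 6.16, 5.96 and 4.67 CPM in control and 0.499 and 0.762 CPM in siURM1 libraries. The pacemaker channel HCN2 had 14.2, 11.3 and 12.2 CPM in control and 33.8 and 27.6 CPM in siURM1 libraries (1.29), while the potassium channel subunit KCNAB3 fell by 2.34 and was also lower than in siNAE1 (-2.11) and siUBE2M cells (-2.41). The lower channel genes had under 7 CPM, with BEST1 as the exception.

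Of 28 protocadherins and cadherins, 4 were DEGs higher, among them PCDH10, but 2 without siURM1 replicate 2 and 2 without siURM1 replicate 1, and of 42 collagens and matrix genes 4 were higher, all below 15 CPM. Of 37 HOX genes, 3 were higher, among them HOXA13 with 16.7, 16.1 and 17.0 CPM in control and 37.6 and 33.2 CPM in siURM1 libraries. Of 25 interferon-induced genes, 6 were higher and 1 lower, with 4 to 6 higher and 1 to 2 lower when single libraries were left out. IFI6 (0.96) and IFI44L (1.53, adjusted p = 0.12) lost their calls without siURM1 replicate 1, and IFI6 (0.87) also without control replicate 1. The lower one, ISG15, a ubiquitin-like modifier, had 27.5, 24.8 and 23.7 CPM in control and 9.42 and 10.8 CPM in siURM1 libraries. The higher ones had at most 10.1 CPM, with IFIT1, which binds foreign RNA, at 1.21, 1.91 and 1.01 CPM in control and 5.43 and 5.68 CPM in siURM1 libraries.

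Genes of ribosomal proteins and of the respiratory chain changed by little and mostly upward. Of 85 cytosolic ribosomal protein genes, 55 were higher and 5 lower at an adjusted p-value under 0.05, with a median of 0.29 and RPL15 (0.86) as an abundant example. The single DEG among them, RPL3L, a muscle form of a large-subunit protein, was lower (-1.22), and its call was lost without control replicate 1 (-1.07) or siURM1 replicate 1 (-1.03). Of the 13 protein-coding genes of the mitochondrial genome, 12 were higher by this measure and none was a DEG by edgeR or DESeq2, with a median of 0.39. MT-ND2, a subunit of complex I, had 1397, 1580 and 1508 CPM in control and 2513 and 2862 CPM in siURM1 libraries. Mitochondrial genes took 4.57% to 4.93% of counts in control and 5.29% and 5.72% in siURM1 libraries. The 82 nuclear genes of the respiratory chain had a median of 0.31, with 48 higher and 4 lower. Of 62 translation factors, 26 were higher and 18 lower at an adjusted p-value under 0.05, with a median of 0.06 and 2 DEGs. The initiation factor EIF5B, which joins ribosomal subunits, had 203, 227 and 226 CPM in control and 79.1 and 94.2 CPM in siURM1 libraries, while EIF4B, which assists the helicase of initiation, rose from 312, 324 and 343 CPM to 688 and 663 CPM. PSMA7, a core subunit of the proteasome, was lower (-1.08), as was PSMD5, an assembly chaperone, at a low level (-1.72, and -1.27 with an adjusted p of 0.14 without siURM1 replicate 2), and the median over 41 subunits was 0.00. Of 65 tested cell cycle genes in 2 lists none was a DEG, MCM3, a subunit of the replicative helicase, had -0.90 and CCND1, a G1 cyclin, had 0.93. Of 20 p53 targets, GADD45A, which restrains the cycle after DNA damage, was the single DEG (-1.15), while 10 were lower and 3 higher at an adjusted p-value under 0.05, with a median of -0.31. Leaving out single libraries changed the counts in these cell cycle and p53 lists by at most 1 gene.

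The remaining lists held few DEGs. Of 201 zinc finger genes of chromosome 19, 5 were DEGs lower and 1 higher, and 62 were lower and 19 higher at an adjusted p-value under 0.05, with a median of -0.27. The number of lower DEGs ran from 3 to 8 when single libraries were left out. Of 26 clustered histone genes 2 were higher and 1 lower, and of 44 snoRNA host genes and targets of nonsense-mediated decay 1 was higher and 2 lower. No gene was a DEG, by edgeR or DESeq2, among 14 NF-kB targets, 15 members of the BCL2 family, 13 abundant long noncoding RNAs, 24 enzymes of purine and pyrimidine synthesis and 77 mitochondrial ribosomal proteins, where the medians were 0.20, -0.07, -0.05, 0.01 and 0.12. At an unadjusted p-value under 0.05, these 5 lists held 5, 3, 4, 9 and 31 higher and 2, 4, 3, 9 and 14 lower genes. Apart from the zinc finger genes, leaving out single libraries changed the counts of these lists by at most 1 gene.

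Noncoding genes made up more of the decreases. Among the 869 lower DEGs were 121 antisense genes and 128 long intergenic noncoding RNAs (lincRNAs), with 31 and 34 among the higher ones. These classes are rarely abundant, so genes with a mean above 1 and up to 10 CPM were compared. In that range, 11.9% of 655 antisense genes, 15.9% of 498 lincRNAs and 8.81% of 2963 protein-coding genes were called lower, and 1.98%, 3.21% and 6.68% were called higher. The medians were -0.26, -0.22 and -0.07. Above 10 CPM the shares called lower were 13.0% of 92, 13.8% of 80 and 1.63% of 10050. Processed pseudogenes did not share the direction, with a median of 0.07 in the first range. The library kit kept the strand, but whether the counting used it is not given in the sources used here, so reads of an antisense gene and of its partner may not be separated. An exception among lincRNAs was AL139246.5, with 5.56, 7.01 and 5.36 CPM in control and 19.3 and 19.6 CPM in siURM1 libraries, which was higher than in siNAE1 (1.07) and siUBE2M cells (1.80), and was named after its values were seen.

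Since the tRNAs thiolated with URM1 read AAA, GAA and CAA, protein-coding genes were ranked by the share of these codons and divided into 4 bins of equal size. A coding sequence was found for 13884 of 14011 tested protein-coding genes (99.1%). The median log2 fold change was 0.12 in the bin with the lowest share (median share 1.90%), 0.07 and 0.01 in the next and -0.13 in the bin with the highest share (median 12.1%). In the lowest bin 182 of 3471 genes were DEGs higher and 142 lower, and in the highest 33 were higher and 124 lower. Spearman's rho between the share and the log2 fold change was -0.19 across genes, which are not independent and share the same 5 libraries. The share followed base composition closely, with a rho of -0.88 to the GC content at the wobble position of codons (GC3), which by itself had a rho of 0.18 with the log2 fold change. Within the lowest of 4 bins of GC3, the median still fell from 0.01 to -0.21 as the codon share rose from 8.23% to 15.5%, and within the next from 0.08 to -0.09. The medians were 0.08, 0.04, 0.07 and 0.00 within the bin after that and 0.17, 0.08, 0.11 and 0.11 within the highest bin of GC3, without a steady fall in either, and GC3 also differed within each of these subsets. Set against siNAE1 cells, the medians by codon share were 0.00, -0.03, 0.02 and -0.01, with no steady fall, and set against siUBE2M cells they were 0.10, 0.04, 0.00 and -0.09. These are differences in RNA level and do not measure translation.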

How the data were processed

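Messenger RNA of HEK293T cells was sequenced in strand-specific libraries (control 3, siURM1 2, siNAE1 3, siUBE2M 3). The authors used fastp for trimming, HISAT2 2.0.5 for alignment to GRCh38 and featureCounts 1.5.0-p3 for counting per gene. Neither the annotation used nor whether counting respected strand is given in the sources used here. The deposited table holds counts per gene, used for all results, and FPKM values the authors computed from them (scaled to gene length and library size), used only in alternatives.

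Genes passing filterByExpr were fitted in 1 model of 4 groups with edgeR 4.0.16 (TMM, quasi-likelihood test, R 4.3.3). DEGs had a log2 fold change of at least 1 in either direction with a p-value under 0.05 after Benjamini-Hochberg correction. The fit was tested on simulated data. Named genes were URM1 and its partners, the 12 highest and 12 lowest DEGs with at least 10 CPM, the leading members of each list, the 5 highest and 5 lowest of those called against all 3 groups, and the 6 DEGs over 100 CPM with the smallest p-values, apart from some genes that are not reported here. DESeq2 1.42.0, limma 3.58.1 on log2 FPKM plus 1, other filters and normalizations, a replicate block and leaving out each library were tried as alternatives. The members and lists were chosen with earlier results of these data known. Codon shares came from coding sequences of GENCODE transcripts, with at least 50 codons. A promoter is a RefSeq window from 250 bases before to 50 bases after the start.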

Additional observations from a re-analysis of the deposited data

How the results depend on the processing

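The direction of every named gene was kept in each alternative that gave it a value, except for the markers SALL2 (-0.14 to 0.0073 when single libraries were left out) and IGF2BP3 (-0.015 to 0.21), which did not differ detectably, and URM1 kept its call in all of them. The number of DEGs against the control depended most on the treatment of fold changes and low counts. Against 1399 (530 higher, 869 lower), it was 7641 (3819 and 3822) without a fold threshold, 823 (324 and 499) with at least 10 counts in every library, which tested fewer genes, and 214 (96 and 118) with glmTreat, which tests against a log2 fold change of 1. With limma on log2(FPKM + 1) it was 345 (156 and 189), and 403 (182 and 221) with an FPKM of at least 1, since the pseudocount shrinks the changes of low genes. Against siNAE1 (1241 DEGs) these settings gave 7091, 740, 168, 292 and 348, and DESeq2 fitted on 2 groups gave 823. Against siUBE2M (993 DEGs) they gave 6427, 603, 136, 222 and 275. List members called higher and lower (88 and 52) were 548 and 335 without a fold threshold, 27 and 18 with glmTreat, and 40 and 24 with limma on log2(FPKM + 1), with or without the FPKM minimum. DESeq2 on 4 groups (1182) and 2 groups (1073), RLE normalization (1402), no filter (1416), edgeR on 2 groups (1430), limma on log2(FPKM + 0.1) (1166) and upper-quartile normalization (1412, added after the data were seen) stayed within 1.5 times. Leaving out single libraries gave 1187 to 1421 DEGs, the lowest without siURM1 replicate 1. Without either siURM1 library the one left is assumed to vary like the other groups. With 2 siURM1 libraries and low counts, genes under 10 CPM have the least certain fold changes.

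Same-numbered libraries had correlations of their deviations from the group means between -0.066 and 0.079. With so few libraries the deviations within a group are tied to each other. Whether the replicate numbers pair the libraries therefore cannot be decided from these values. A fit with the replicate number as a block gave 1385 DEGs (529 higher and 856 lower).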
